A study of Mus musculus with 12 samples.

Results

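The EGF family of growth factors and receptors was followed by RNA sequencing through 4 groups of cultured mouse cells labelled as neural. Its 10 members were fixed by name: the ligands Areg, Ereg, Hbegf, Tgfa, Btc and Nrg1 and the receptors Egfr, Erbb2, Erbb3 and Erbb4. They are 10 of the 45706 genes in the count table, and 9 of them, all but Btc, passed the filter on low counts and were among the 17003 genes tested.

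The study switched on Sox1, a transcription factor of the early neuroepithelium, in neural progenitors with dCas9-VP64, a nuclease-dead Cas9 fused to an activator and guided to the Sox1 promoter. All cells were of mouse origin, labelled C57BL/6, and came from embryonic stem cells that carry GFP in 1 Sox1 allele. Each of the 4 groups held 3 libraries, made on different days. NSC stood for unsorted neuroepithelial cells. NR stood for neural rosettes, neuroepithelial cells sorted for GFP. Baseline stood for glial progenitors with less Sox1 RNA than Sox1posGP, though not without it, labelled as not sorted. Sox1posGP stood for Sox1-positive glial progenitors, labelled as sorted. The text of the study describes sorted cells on both sides of this comparison, against the label of Baseline, so whether sorting differed between these groups is not settled here. The dCas9-VP64 lines were clonal, and which clone gave which library is not given in the sources used here. The progenitor medium held EGF, basic FGF and laminin, so the glial progenitors were grown with a ligand of Egfr. NSC and NR cells were kept in the same NeuroCult base medium, and whether EGF was added for them is not given in the sources used here.

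Total counts were 43095688, 29046205 and 31298912 in NSC 1 to 3, and 16707006, 30291431 and 34594885 in NR 1 to 3. They were 18351483, 7434718 and 4939268 in Baseline 1 to 3, and 3407066, 6315574 and 5875864 in Sox1posGP 1 to 3. Levels are given as CPM, counts per 1000000 counts of the library size scaled by TMM, a normalisation that trims extreme genes. A floor of 3 counts per library corresponded to 0.0671 to 0.104 CPM in NSC, 0.0843 to 0.185 in NR, 0.179 to 0.626 in Baseline and 0.471 to 0.868 in Sox1posGP, so low levels were measured least well in the glial progenitors.

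EGF family ligands are made as membrane proteins, and metalloproteases of the ADAM family cut them free to act on the same or on neighbouring cells. Areg and Tgfa bind Egfr, Hbegf, Ereg and Btc bind Egfr and Erbb4, and Nrg1 binds Erbb3 and Erbb4, while Erbb2 has no known ligand of its own and works as the partner of the others. Bound receptors pair up and feed the Ras/MAPK and PI3K cascades, and EGF is widely used to keep neural progenitors dividing in culture.

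Sox1 itself, the gene that names the groups, was counted at 81, 43 and 26 in Baseline 1 to 3 and at 70, 133 and 130 in Sox1posGP 1 to 3. In CPM these were 4.83, 6.00 and 5.43 against 20.3, 20.9 and 21.7. All Sox1posGP libraries lay above all Baseline libraries, but Sox1 was not at 0 in Baseline. The log2 difference was 1.97 (SE 0.43; edgeR quasi-likelihood test, Benjamini-Hochberg adjusted p = 0.00221). NSC libraries held 48.6, 65.0 and 51.8 CPM of Sox1, more than any NR library, at 4.62, 20.0 and 19.2. The libraries labelled NR, sorted for a Sox1 reporter, thus held less Sox1 RNA than the unsorted NSC libraries (log2 difference -1.89; edgeR quasi-likelihood test, Benjamini-Hochberg adjusted p = 0.000537), and NR 1 no more than Baseline.

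Marker lists gave the cellular setting of the groups. The 5 pluripotent cell markers summed to 2505, 1326 and 1898 CPM in NR 1 to 3 against 130, 43.2 and 115 in NSC 1 to 3, with Dppa5a the most abundant, and the 6 epithelium markers to 1227, 1291 and 892 against 219, 295 and 238. All 5 pluripotent and all 6 epithelium markers were called higher in NR than in NSC, and all 5 neural progenitor markers were called lower (all genes 30.0% and 26.6%). The libraries labelled NR therefore carried markers that their label does not name, and are called by that label only. NSC and NR also held the 5 mesenchyme markers, at 2663, 806 and 2623 CPM and at 5792, 1269 and 3896 CPM, against 32.8 to 48.2 in the glial progenitors. Of the 5 neuron markers, 3 were called higher and 1 (Map2) lower than in Baseline in both NSC and NR, with medians of 5.52 and 4.64 on the log2 scale. Of all genes, 44.4% were called higher and 33.7% lower in NSC than in Baseline, and 45.6% and 34.1% in NR. Counts of called markers near such shares are no result about a cell type. Mean CPM was 253 in NSC and 137 in NR against 5.37 in Baseline for Tubb3, and 117 and 131 against 0.766 for Stmn2. Map2, the most abundant of the list in Baseline, stood at 89.9 and 37.9 against 464. The list summed to 422 to 564 CPM in NSC and 276 to 397 in NR, against 467 to 495 in Baseline. Of the 6 neural crest markers 5 were tested, with 3 called higher and 2 lower in both (medians 4.35 and 4.80), and Ets1, the most abundant of them in Baseline, was among those lower, at 51.9 and 34.4 against 312 CPM. In the glial progenitors the pluripotent markers summed to 6.45 to 7.12 CPM in Baseline and 7.07 to 9.01 in Sox1posGP. The 5 astroglia markers summed to 3606, 3275 and 3216 CPM in Baseline and to 1585, 1554 and 1511 in Sox1posGP, with Slc1a3 the most abundant and Aqp4 at 0 in Baseline 2, Baseline 3 and Sox1posGP 1. The lower sum in Sox1posGP came from Slc1a3 and Fabp7, both called lower there. Mean CPM of the other 3 was higher in Sox1posGP, at 3.09 against 2.25 for Gfap, 18.4 against 15.4 for S100b and 0.321 against 0.0199 for Aqp4, and the median log2 difference of the list was 0.26. Aqp4 had 6 pooled counts in Sox1posGP and 1 in Baseline, with both means under the mean floor of 3 counts per library (0.613 and 0.408 CPM). The 7 oligodendrocyte lineage markers summed to 2404, 2533 and 2420 CPM in Baseline and 1761, 1745 and 1628 in Sox1posGP, with Olig1 the most abundant, but Sox10, a defining gene of that lineage, was at 0 in all 6 glial progenitor libraries. Of the 6 tested, 3 (Olig1, Olig2 and Mbp, the last on 1 count in Sox1posGP) were called lower in Sox1posGP, and the median log2 difference of the list was -0.62. Of the 5 neural progenitor markers, 2 were called higher and 2 lower in Sox1posGP than in Baseline (all genes 21.6% and 22.7%). Mean CPM was 81.5 against 284 for Sox2 and 227 against 90.2 for Nes. Of the 5 neuron markers 1 was called higher there, and of the 5 tested neural crest markers 1 lower. Mean CPM was 4.57 against 0.713 for Dcx and 176 against 312 for Ets1. Fewer cells of a type and less RNA per cell cannot be told apart in bulk libraries. The part of these markers in the results on the EGF family was not tested, among them those on Areg, Egfr, Nrg1, Ereg, Erbb3 and Erbb4.

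**Figure D1:**
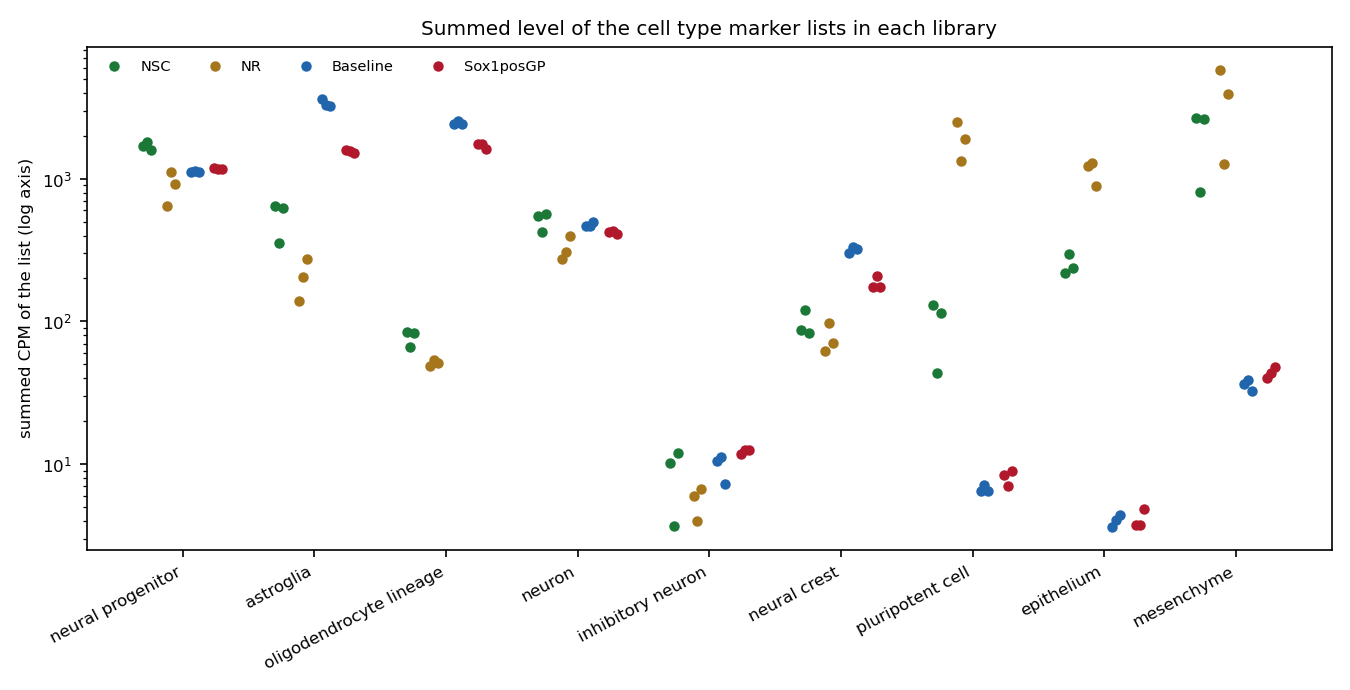
Summed CPM of each marker list (y axis, log scale) by list (x axis), 1 point per library, coloured by group. Pluripotent and epithelium markers were highest in NR, and the sum of the astroglia markers, mostly Slc1a3 and Fabp7, was highest in Baseline.

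The comparison of Sox1posGP with Baseline sets glial progenitors with higher Sox1 RNA beside those with lower. In the study, cells were transduced with Sox1 guide RNAs and selected by antibiotic, and only a minor share turned on the GFP reporter. Which of these steps the Baseline cells went through is not stated here. Sox1 level, treatment and the choice of responding cells therefore cannot be told apart in this comparison. By the edgeR quasi-likelihood test, a gene was called at a Benjamini-Hochberg adjusted p under 0.1 over the 17003 genes tested. Of the 9 tested members, 1 was called higher in Sox1posGP (Areg; all genes 21.6% higher) and 2 lower (Egfr and Erbb4; all genes 22.7% lower). Against Baseline, NSC held 4 members called higher and 2 lower (all genes 44.4% and 33.7%). NR held 4 higher and 3 lower against Baseline (all genes 45.6% and 34.1%). NR against NSC, labelled as sorted and unsorted but differing in the marker lists, gave 1 member higher and 3 lower (all genes 30.0% and 26.6%). Sox1posGP against NSC gave 2 higher and 4 lower (all genes 31.4% and 41.8%), and Sox1posGP against NR gave 4 higher and 4 lower (all genes 32.0% and 44.4%). With so large a share of all genes called, the number of members called is no result about the family, and the members are described by their own values. The comparisons share libraries, so each is given by its own values.

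**Figure D2:**
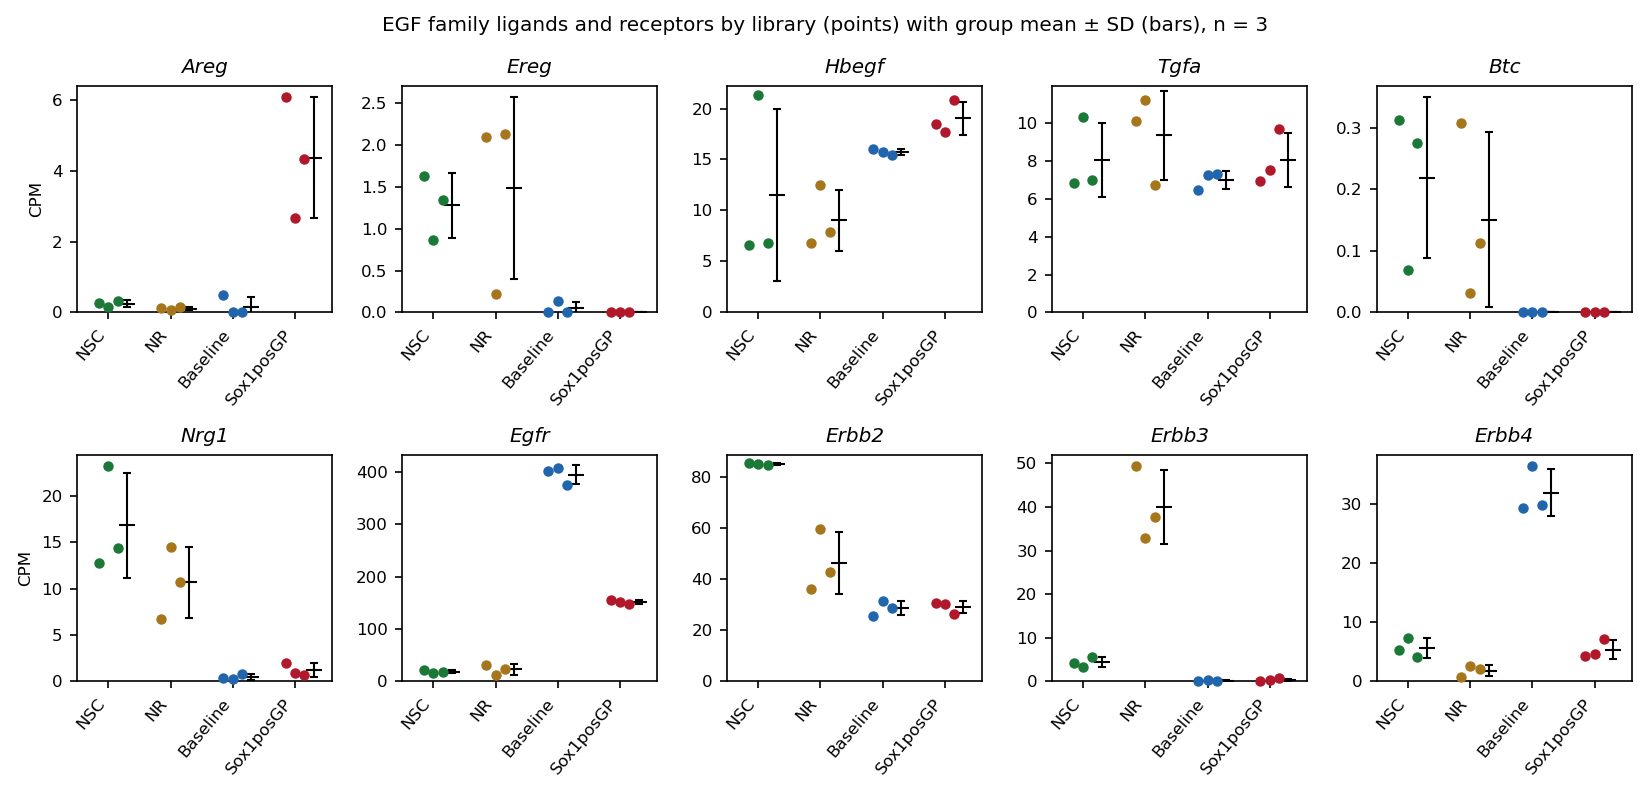
CPM of each member (y axis, linear from 0) by group (x axis), 1 panel per gene and 1 point per library, with bars for the group mean and SD (n = 3). Areg was highest in Sox1posGP, Egfr and Erbb4 in Baseline, Erbb2 in NSC and Erbb3 in NR.

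Areg (amphiregulin, ENSMUSG00000029378, GRCm38 chr5:91139599-91148432, plus strand) is a ligand of Egfr alone. Counts of Areg were 8, 0 and 0 in Baseline 1 to 3 and 21, 17 and 26 in Sox1posGP 1 to 3, which is 0.477, 0 and 0 CPM against 6.08, 2.67 and 4.34 CPM. Every Sox1posGP library lay above every Baseline library, although the Sox1posGP libraries were on the whole the shallower ones. NSC held 12, 4 and 11 counts and NR 2, 2 and 5, at most 0.335 CPM in any of these 6 libraries. Means were 4.36 ± 1.71 CPM (SD, n = 3) in Sox1posGP, 0.247 ± 0.10 in NSC, 0.159 ± 0.276 in Baseline and 0.109 ± 0.0398 in NR.

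Areg was higher in Sox1posGP than in Baseline by 4.0 on the log2 scale (SE 0.65; edgeR quasi-likelihood test, Benjamini-Hochberg adjusted p = 0.000245), in 3 of 3 libraries. The pooled counts, 64 against 8, gave a ratio of 14.5 after scaling, with an exact 95% counting interval of 6.94 to 35.1. All 8 Baseline counts came from Baseline 1, and without that library Baseline was at 0, which puts Areg at least 8.35-fold higher in Sox1posGP against the floor of 3 counts per library. Areg was also higher in Sox1posGP than in NSC, by 4.04 on the log2 scale (SE 0.53; edgeR quasi-likelihood test, Benjamini-Hochberg adjusted p = 1.31e-05). Against NR the difference was 5.20 (SE 0.61; edgeR quasi-likelihood test, Benjamini-Hochberg adjusted p = 4.06e-06). NSC, Baseline and NR, next to each other in the order of levels, did not differ by the test (edgeR quasi-likelihood test, Benjamini-Hochberg adjusted p = 0.967 and 0.224). Without Baseline 2, Areg was called lower in NR than in Baseline, at -1.69 (edgeR quasi-likelihood test, Benjamini-Hochberg adjusted p = 0.0843). Without Baseline 1, where Baseline was at 0, the direction turned in both comparisons and Areg was called higher in NSC than in Baseline (edgeR quasi-likelihood test, Benjamini-Hochberg adjusted p = 0.0474), with no fold given because the NSC level lay under the floor of the Baseline libraries. Areg was lower in NR than in NSC in each same-number pair, at a log2 difference of -1.16 that was not called (edgeR quasi-likelihood test, Benjamini-Hochberg adjusted p = 0.18). The ratio of pooled counts of NR to NSC was 0.4285 after scaling (exact 95% counting interval 0.177 to 0.939). Intervals and floors take the whole numbers of the table as read counts and cover counting error only. In the main fit, p-values set a group difference against the spread between libraries, estimated over all 4 groups.

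The promoters of the 3 members called between Sox1posGP and Baseline are shown because these are the genes whose RNA differed between these groups. RefSeq promoters on GRCm38.p6 were matched for 6 of the 10 members, Areg, Tgfa, Btc, Egfr, Erbb2 and Erbb4; Ereg, Hbegf, Nrg1 and Erbb3 are named only. Each sequence gives the 250 bases before the start of the gene, 5′ to 3′ on the strand of the gene, with searched motifs in capitals.
Areg, chr5:91139349-91139598, plus strand: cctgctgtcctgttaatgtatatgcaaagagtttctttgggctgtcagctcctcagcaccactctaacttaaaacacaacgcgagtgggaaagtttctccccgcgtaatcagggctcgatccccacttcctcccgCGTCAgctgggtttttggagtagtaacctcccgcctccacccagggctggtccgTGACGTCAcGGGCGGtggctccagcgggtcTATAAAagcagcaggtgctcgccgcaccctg
Egfr, chr11:16751953-16752202, plus strand: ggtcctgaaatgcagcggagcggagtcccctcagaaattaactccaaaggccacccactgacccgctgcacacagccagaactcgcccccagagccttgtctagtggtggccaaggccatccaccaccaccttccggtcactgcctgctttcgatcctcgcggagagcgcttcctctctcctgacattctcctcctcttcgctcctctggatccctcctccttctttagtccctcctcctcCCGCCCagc
Erbb4, chr1:69108060-69108309, minus strand: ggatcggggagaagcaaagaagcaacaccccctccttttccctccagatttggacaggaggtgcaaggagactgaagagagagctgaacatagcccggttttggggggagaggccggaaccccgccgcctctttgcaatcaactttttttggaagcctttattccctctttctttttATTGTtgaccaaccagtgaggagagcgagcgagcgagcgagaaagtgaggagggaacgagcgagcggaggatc

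Searched on both strands were the core of the Sox motif (ACAAT, or ATTGT on the other strand), the GC box (GGGCGG, or CCGCCC), the TATA box (TATAAA) and the half-site of the cAMP response element (TGACG, or CGTCA). Of the 32817 mouse promoters of this length, 27.7% held the Sox core, 32.7% the GC box, 12.4% the TATA box and 17.8% the half-site. The Areg window held the half-site at -115 to -111, -61 to -57 and -58 to -54, the last pair overlapping, a GC box at -52 to -47 and a TATA box at -31 to -26. The letters of the Sox core were not in the Areg or Egfr window and stood at -73 to -69 in that of Erbb4. The Egfr window held 1 GC box, at -9 to -4. The GC content of these windows was 57.2% in Areg, 60.8% in Egfr and 54.0% in Erbb4, against a median of 52.4% over all promoters. A match is a description of the letters, and binding of a factor was not measured here.

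Ereg (epiregulin, ENSMUSG00000029377, chr5:91074622-91093646, plus strand) is a ligand of Egfr and Erbb4 encoded beside Areg. Counts of Ereg were 73, 25 and 44 in NSC 1 to 3 and 34, 7 and 76 in NR 1 to 3, which is 1.63, 0.863 and 1.34 CPM and 2.09, 0.226 and 2.14 CPM. In the 6 glial progenitor libraries it had a single count, in Baseline 2. Every NSC and NR library therefore had more CPM of Ereg than every glial progenitor library, while NSC and NR overlapped. NR 2 lay under the floor of 3 counts of each glial progenitor library but Baseline 1 (floors of 0.4185 to 0.8685 CPM). NSC 2 lay just under that of Sox1posGP 1. Counts of 0 or 1 there do not place these 2 libraries above them. Pooled counts of NSC against Baseline, 142 against 1, gave a ratio of 38.3 (exact 95% counting interval 6.76 to 1523; edgeR quasi-likelihood test, Benjamini-Hochberg adjusted p = 0.00535). Those of NR against Baseline, 117 against 1, gave 40.6 (7.14 to 1616; edgeR quasi-likelihood test, Benjamini-Hochberg adjusted p = 0.0039). Without Baseline 1 the fitted log2 differences of Ereg from Baseline were 3.84 in NSC and 4.01 in NR, in place of 4.96 and 5.13. Without Baseline 2 the group was at 0, and Ereg was at least 3.18-fold higher in NSC and at least 3.69-fold higher in NR against the floor of 3 counts per library. Against Sox1posGP, where all libraries were at 0, Ereg was at least 2.09-fold higher in NSC and at least 2.42-fold higher in NR (edgeR quasi-likelihood test, Benjamini-Hochberg adjusted p = 0.0104 and 0.0076). Baseline and Sox1posGP were both at or under the floor.

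Btc (betacellulin, ENSMUSG00000082361, chr5:91357261-91402994, minus strand), another ligand of both Egfr and Erbb4, was counted at 14, 2 and 9 in NSC and at 5, 1 and 4 in NR. It was at 0 in all 6 glial progenitor libraries, where a pooled count of 0 allows up to 0.105 CPM in Baseline and 0.190 CPM in Sox1posGP. It did not pass the filter on low counts and was not tested. The ratio of NR to NSC was 0.514, with an exact 95% counting interval of 0.220 to 1.11.

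Areg, Ereg and Btc lie within chr5:91027464-91402994, a stretch of 375 kb that holds 4 protein-coding genes in the annotation, all of them EGF family ligands (the other is Epgn, epigen). Pooled over the 3 libraries of a group, Areg went from 8 counts in Baseline to 64 in Sox1posGP, while Ereg had 1 and 0, Btc 0 and 0, and Epgn 3 and 6. In NSC Ereg led instead, with 142 counts against 30 of Epgn, 27 of Areg and 25 of Btc. Within 5 Mb to either side of Areg, 63 genes were tested between Sox1posGP and Baseline and their median log2 difference was 0.14, with 19 called (21.6% of all tested genes were called higher and 22.7% lower). In NSC against Baseline the median of the same stretch was 1.08 with 47 called, against a median of 0.20 over all genes (44.4% called higher and 33.7% lower). In NR against Baseline it was 0.92 with 51 called, against 0.19 over all genes (45.6% and 34.1%). A part of this stretch in the higher Ereg of NSC and NR was not tested.

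Hbegf (heparin-binding EGF-like growth factor, ENSMUSG00000024486, on chromosome 18) was the ligand counted most in the glial progenitors. It was counted at 269, 113 and 74 in Baseline and at 64, 113 and 125 in Sox1posGP, which is 16.1, 15.8 and 15.4 CPM against 18.5, 17.7 and 20.9 CPM. NSC held 6.58, 21.3 and 6.77 CPM and NR 6.77, 12.5 and 7.84 CPM. The glial progenitor groups did not overlap but lay close together, and NSC 2 stood far above the other NSC and NR libraries. Means were 19.0 ± 1.61 CPM (SD, n = 3) in Sox1posGP, 15.8 ± 0.304 in Baseline, 11.6 ± 8.45 in NSC and 9.02 ± 3.02 in NR.

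Sox1posGP and Baseline differed in Hbegf by 0.27 on the log2 scale (SE 0.40; edgeR quasi-likelihood test, Benjamini-Hochberg adjusted p = 0.644). With these 2 groups fitted alone the difference was called (edgeR quasi-likelihood test, Benjamini-Hochberg adjusted p = 0.035, and 0.035 to 0.815 over its alternatives). Hbegf was lower in NR than in Baseline at a log2 difference of -0.80 (SE 0.38; edgeR quasi-likelihood test, Benjamini-Hochberg adjusted p = 0.0742). That call was lost with upper quartile scaling (0.105), with at least 10 counts in every library (0.138) and without NR 1 (0.162), NR 3 (0.16), Baseline 1 (0.142) or Baseline 3 (0.117). Hbegf was higher in Sox1posGP than in NR by 1.07 (SE 0.39; edgeR quasi-likelihood test, Benjamini-Hochberg adjusted p = 0.0246). NSC did not differ from Baseline (edgeR quasi-likelihood test, Benjamini-Hochberg adjusted p = 0.288) or Sox1posGP (0.109) by the test. The difference of Sox1posGP from NSC, 0.73, was called with upper quartile scaling (0.0901), with no filter on low counts (0.00401) and without the NR libraries (0.0863). Without NSC 2, Hbegf was lower in NSC than in Baseline at -1.25 (edgeR quasi-likelihood test, Benjamini-Hochberg adjusted p = 0.000204). Also without NSC 2, it was higher in Sox1posGP than in NSC at 1.53 (edgeR quasi-likelihood test, Benjamini-Hochberg adjusted p = 4.64e-05).

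Tgfa (transforming growth factor alpha, ENSMUSG00000029999, chr6:86195223-86275719, plus strand), a ligand of Egfr, stood at similar levels in all groups. It stood at 6.85, 10.3 and 6.98 CPM in NSC, 10.1, 11.2 and 6.74 in NR, 6.45, 7.26 and 7.31 in Baseline and 6.95, 7.54 and 9.67 in Sox1posGP, from 24 to 348 counts. All groups overlapped, and Tgfa missed the threshold in each comparison (edgeR quasi-likelihood test, Benjamini-Hochberg adjusted p from 0.115 to 0.958). The log2 difference between Sox1posGP and Baseline was 0.23 (SE 0.26; edgeR quasi-likelihood test, Benjamini-Hochberg adjusted p = 0.537). Without NR 3, Tgfa was called higher in NR than in Baseline (edgeR quasi-likelihood test, Benjamini-Hochberg adjusted p = 0.0321, and 0.0317 to 0.34 over its alternatives). It was also called with DESeq2 (0.0907), its size factors in edgeR (0.0734), upper quartile scaling (0.0568) and at least 10 counts in every library (0.0317).

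Nrg1 (neuregulin 1, ENSMUSG00000062991, chr8:31814551-32884029, minus strand), a ligand of Erbb3 and Erbb4, was higher in NSC and NR than in the glial progenitors. Nrg1 had 572, 673 and 471 counts in NSC and 110, 448 and 383 in NR, which is 12.8, 23.2 and 14.4 CPM and 6.77, 14.5 and 10.8 CPM. Baseline held 6, 2 and 4 counts and Sox1posGP 7, 6 and 4, or 0.358, 0.279 and 0.835 CPM and 2.03, 0.942 and 0.667 CPM. Every NSC and NR library lay above every glial progenitor library.

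Nrg1 was higher in NSC than in Baseline by 5.28 on the log2 scale, or 38.8-fold (SE 0.47; edgeR quasi-likelihood test, Benjamini-Hochberg adjusted p = 2.2e-07). It was higher in NR than in Baseline by 4.64, or 24.9-fold (SE 0.48; edgeR quasi-likelihood test, Benjamini-Hochberg adjusted p = 8.51e-07). It was lower in Sox1posGP than in NSC at a log2 difference of -3.93 (SE 0.44; edgeR quasi-likelihood test, Benjamini-Hochberg adjusted p = 2.78e-06) and lower than in NR at -3.29 (SE 0.45; adjusted p = 1.67e-05 by the same test). Between Sox1posGP and Baseline, which overlapped, the difference was 1.35 (SE 0.70; edgeR quasi-likelihood test, Benjamini-Hochberg adjusted p = 0.153). It was called with DESeq2 (0.0776), with no filter on low counts (0.0614) and without the NR libraries (0.0983), within a range of 0.0614 to 0.413 over its alternatives. NR was lower than NSC at a log2 difference of -0.64 (SE 0.29; edgeR quasi-likelihood test, Benjamini-Hochberg adjusted p = 0.086), with overlapping groups. The same-number libraries of NR and NSC deviated together over all genes, with correlations of 0.229, 0.490 and 0.296, but NR 3 with NSC 1 (0.300) and NR 1 with NSC 3 (0.186) did so as well. Nrg1 was lower in NR in 3 of 3 same-number pairs. Fitted with a replicate block, the difference was -0.66 (edgeR quasi-likelihood test, Benjamini-Hochberg adjusted p = 0.0179). The call without the block was lost with DESeq2 (0.132), with upper quartile scaling (0.115), with these groups fitted alone (0.13) and without NSC 2 (0.322), NR 1 (0.26) or NR 3 (0.157).

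Egfr (ENSMUSG00000020122, chr11:16752203-16918158, plus strand), the EGF receptor itself, was the member with the highest counts in the glial progenitors. It was counted at 6718, 2924 and 1794 in Baseline and at 534, 964 and 881 in Sox1posGP, which is 401, 408 and 374 CPM against 155, 151 and 147 CPM. NSC held 21.2, 15.4 and 17.9 CPM and NR 31.8, 12.2 and 24.1 CPM. Baseline stood above Sox1posGP and Sox1posGP above all 6 NSC and NR libraries without overlap, while NSC and NR overlapped. Means were 394 ± 17.7 CPM (SD, n = 3) in Baseline, 151 ± 3.84 in Sox1posGP, 22.7 ± 9.89 in NR and 18.2 ± 2.90 in NSC.

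Egfr was lower in Sox1posGP than in Baseline at a log2 difference of -1.39, or 2.62-fold (SE 0.23; edgeR quasi-likelihood test, Benjamini-Hochberg adjusted p = 0.000307), in 3 of 3 libraries. It was lower in NSC than in Baseline at a log2 difference of -4.44, or 21.6-fold (SE 0.26; edgeR quasi-likelihood test, Benjamini-Hochberg adjusted p = 3.06e-09). In NR it was lower than in Baseline at a log2 difference of -4.14, or 17.6-fold (SE 0.25; edgeR quasi-likelihood test, Benjamini-Hochberg adjusted p = 5.13e-09). The Sox1-positive glial progenitors still held 8.28-fold more Egfr than NSC (edgeR quasi-likelihood test, Benjamini-Hochberg adjusted p = 1.08e-07) and 6.73-fold more than NR (adjusted p = 2.64e-07 by the same test). NR and NSC did not differ by the test (edgeR quasi-likelihood test, Benjamini-Hochberg adjusted p = 0.312). Without NR 2 the difference between NR and NSC was called, at 0.60 (edgeR quasi-likelihood test, Benjamini-Hochberg adjusted p = 0.00157, and 0.00157 to 0.986 over its alternatives). Of the 5 astroglia markers, 2 (Slc1a3 and Fabp7) were called lower in Sox1posGP than in Baseline and 1 (Aqp4) higher (all genes 22.7% lower and 21.6% higher). The Aqp4 call rested on 6 pooled counts in Sox1posGP against 1 in Baseline. Slc1a3, a glutamate transporter of astroglia, stood at 2774, 2571 and 2468 CPM in Baseline and 1192, 1205 and 1147 in Sox1posGP. Of the oligodendrocyte lineage markers, 3 of 6 tested were called lower there, with Olig2 at a mean of 331 CPM against 684, and the list had a median log2 difference of -0.62 against 0.26 for the astroglia list. Against Baseline, 4 of the 5 astroglia markers were called lower and 1 higher in both NSC and NR (medians -4.22 and -3.60). Of all genes, 33.7% were called lower and 44.4% higher in NSC than in Baseline, and 34.1% and 45.6% in NR. Mean Slc1a3 was 52.4 and 42.3 CPM there against 2605. The oligodendrocyte lineage markers summed to 66.2 to 84.7 CPM in NSC and 48.95 to 53.9 in NR, against 2404 to 2533. Of the 6 tested, 2 were called lower and 3 higher in both, with medians of 0.81 and 0.57. The part of either list in the differences of Egfr was not tested.

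Erbb2 (ENSMUSG00000062312, chr11:98412470-98437716, plus strand), the co-receptor without a ligand of its own, was highest in NSC. Erbb2 had 3824, 2460 and 2781 counts in NSC and 588, 1851 and 1520 in NR, which is 85.6, 84.9 and 84.8 CPM and 36.2, 59.7 and 42.7 CPM. Baseline held 25.7, 31.3 and 28.8 CPM and Sox1posGP 30.7, 30.2 and 26.2 CPM. NSC stood above NR and NR above both glial progenitor groups without overlap, and the glial progenitor groups overlapped.

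Erbb2 was lower in NR than in NSC at a log2 difference of -0.88 (SE 0.15; edgeR quasi-likelihood test, Benjamini-Hochberg adjusted p = 0.000281). It was lower in Sox1posGP than in NR at a log2 difference of -0.68 (SE 0.16; edgeR quasi-likelihood test, Benjamini-Hochberg adjusted p = 0.00163) and higher in NSC than in Baseline by 1.58, or 2.99-fold (SE 0.16; adjusted p = 6.11e-07 by the same test). Sox1posGP and Baseline differed by 0.02 (SE 0.17; edgeR quasi-likelihood test, Benjamini-Hochberg adjusted p = 0.95). Mien1, which overlaps Erbb2 on the opposite strand, held 2340 counts over all libraries against 14272 of Erbb2, and the libraries do not mark the strand.

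Erbb3 (ENSMUSG00000018166, chr10:128567523-128589652, minus strand), a neuregulin receptor whose own kinase is weak, was a gene of the libraries labelled NR. It was counted at 803, 1022 and 1339 in NR and at 193, 95 and 184 in NSC, which is 49.5, 33.0 and 37.6 CPM against 4.32, 3.28 and 5.61 CPM. The glial progenitors held at most 4 counts in any library, with 3, 3 and 0 in Baseline and 0, 2 and 4 in Sox1posGP. NR stood above NSC, and NSC above all 6 glial progenitor libraries, without overlap.

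Erbb3 was higher in NR than in NSC by 3.18 on the log2 scale, or 9.05-fold (SE 0.26; edgeR quasi-likelihood test, Benjamini-Hochberg adjusted p = 1.65e-06). The ratio of scaled counts was 183 for NR over Baseline (exact 95% counting interval 83.9 to 499; edgeR quasi-likelihood test, Benjamini-Hochberg adjusted p = 2.98e-09). For NSC over Baseline it was 21.2 (9.68 to 58.1; edgeR quasi-likelihood test, Benjamini-Hochberg adjusted p = 2.59e-06). For Sox1posGP over NSC it was 0.0856 (0.0312 to 0.188; edgeR quasi-likelihood test, Benjamini-Hochberg adjusted p = 3.47e-05). Without Sox1posGP 3, which held 4 of the 6 counts of its group, the log2 difference of Sox1posGP from NSC was -4.42 in place of -3.53, and that from NR was -7.59 in place of -6.70. Between Sox1posGP and Baseline, both near the floor, a difference was not detectable at this depth. The pluripotent and epithelium markers rose with Erbb3 from NSC to NR (summed CPM of pluripotent markers 43.2 to 130 in NSC and 1326 to 2505 in NR), and their part in the result was not tested.

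Erbb4 (ENSMUSG00000062209, chr1:68032186-69108059, minus strand), the receptor that binds neuregulins as well as Hbegf, Ereg and Btc, was highest in Baseline. It was counted at 493, 262 and 143 in Baseline and at 15, 29 and 43 in Sox1posGP, which is 29.4, 36.6 and 29.8 CPM against 4.34, 4.55 and 7.17 CPM. NSC held 5.35, 7.39 and 4.05 CPM and NR 0.739, 2.58 and 2.05 CPM. Baseline stood far above the other groups without overlap, Sox1posGP and NSC overlapped, and NR was lowest.

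Erbb4 was lower in Sox1posGP than in Baseline at a log2 difference of -2.55, or 5.86-fold (SE 0.35; edgeR quasi-likelihood test, Benjamini-Hochberg adjusted p = 6.2e-05), in 3 of 3 libraries. Its level in Sox1posGP was near that in NSC, with a log2 difference of -0.04 (SE 0.35; edgeR quasi-likelihood test, Benjamini-Hochberg adjusted p = 0.932), which does not show that the levels are equal. It was lower in NSC than in Baseline at a log2 difference of -2.51, or 5.71-fold (SE 0.31; edgeR quasi-likelihood test, Benjamini-Hochberg adjusted p = 6.07e-06). In NR it was lower than in Baseline at a log2 difference of -4.08, or 17.0-fold (SE 0.34; edgeR quasi-likelihood test, Benjamini-Hochberg adjusted p = 1.15e-07). Sox1posGP held more Erbb4 than NR, by 1.53 (SE 0.38; edgeR quasi-likelihood test, Benjamini-Hochberg adjusted p = 0.00226), and NR less than NSC, at a log2 difference of -1.57 (adjusted p = 0.00135 by the same test). The astroglia and oligodendrocyte lineage markers given beside Egfr also differed from Baseline, and their part in the differences of Erbb4 was not tested.

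**Figure D3:**
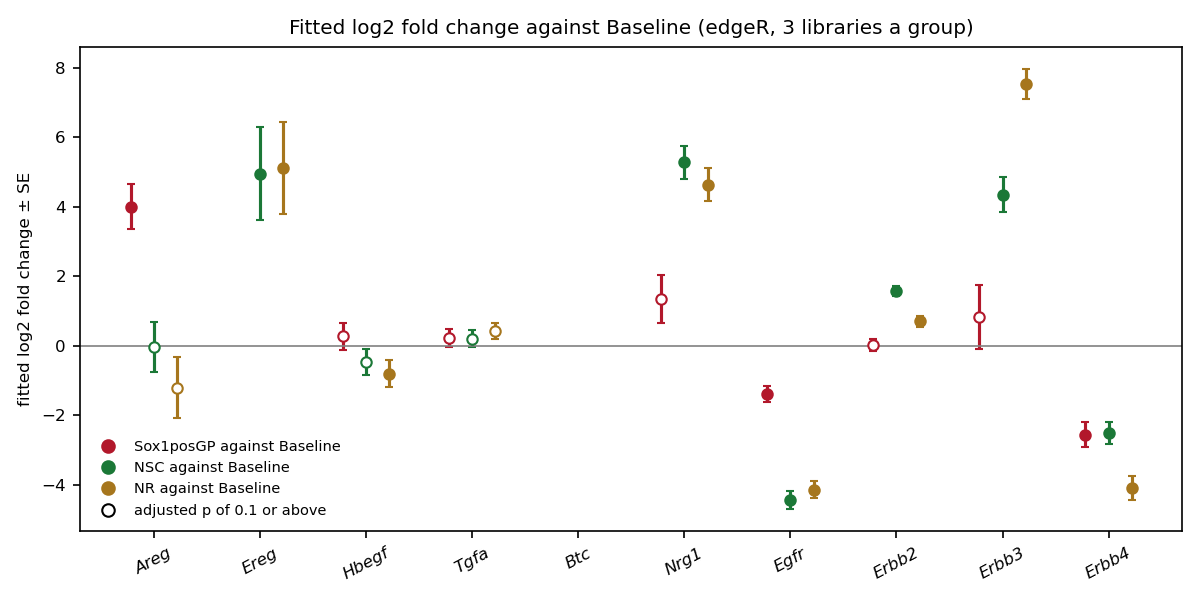
Fitted log2 difference from Baseline (y axis, bars for the SE) of each tested member (x axis) in Sox1posGP, NSC and NR, with filled points for those called at an adjusted p under 0.1. In Sox1posGP, Areg was called higher and Egfr and Erbb4 were called lower.

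Levels of different receptors can be compared per length, as CPM per kilobase of the union of a gene's exons. On this scale the 4 receptors summed to 42.7, 45.0 and 41.0 in Baseline 1 to 3, and to 19.9, 19.6 and 18.7 in Sox1posGP 1 to 3. The sums were 19.4, 18.8 and 19.1 in NSC and lay between 16.7 and 18.2 in NR. Baseline cells thus held the most receptor RNA of the groups, with no overlap, and the sums of Sox1posGP and NSC overlapped. With each gene's longest transcript as its length these last sums did not overlap, at 20.3 to 21.6 in Sox1posGP and 19.6 to 20.3 in NSC.

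The make-up of that sum differed between the groups as well. Egfr made up 82.8%, 80.0% and 80.6% of receptor RNA in Baseline and 68.6%, 68.3% and 69.4% in Sox1posGP, but 7.25% to 9.63% in NSC and 5.91% to 15.6% in NR. Erbb2 made up 11.6%, 13.3% and 13.5% in Baseline, 29.6%, 29.6% and 26.9% in Sox1posGP and 84.5%, 86.7% and 85.1% in NSC. Erbb2 was thus the leading receptor RNA of NSC, and Egfr that of both glial progenitor groups. In NR the sum was divided between Erbb2, at 38.5%, 62.9% and 49.0%, and Erbb3, at 45.6%, 30.1% and 37.4%. Erbb4 stayed a small part even where it was highest, at 5.57%, 6.57% and 5.89% in Baseline.

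The 6 ligands summed to 4.74, 4.44 and 4.40 CPM per kilobase in Baseline and to 10.1, 7.12 and 9.44 in Sox1posGP, and these groups did not overlap. The sums were 4.34, 8.58 and 4.52 in NSC and 4.29, 5.82 and 4.36 in NR, so NSC 2 lay within the range of Sox1posGP. Areg made up 49.5%, 30.9% and 37.8% of ligand RNA in Sox1posGP and 8.29%, 0% and 0% in Baseline. Hbegf made up 70.0% to 73.5% in Baseline and 37.9% to 51.6% in Sox1posGP. The ligand RNA of Sox1posGP was therefore mostly Areg and Hbegf, both ligands of Egfr. With each gene's longest transcript as its length, NSC 2 summed to 14.3 CPM per kilobase, above Sox1posGP at 10.2 to 13.3. By that length the mean share of Areg in Sox1posGP was 28.8% in place of 39.4%. The Sox1-positive glial progenitors thus held more RNA of an Egfr ligand and less of Egfr than Baseline.

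**Figure D4:**
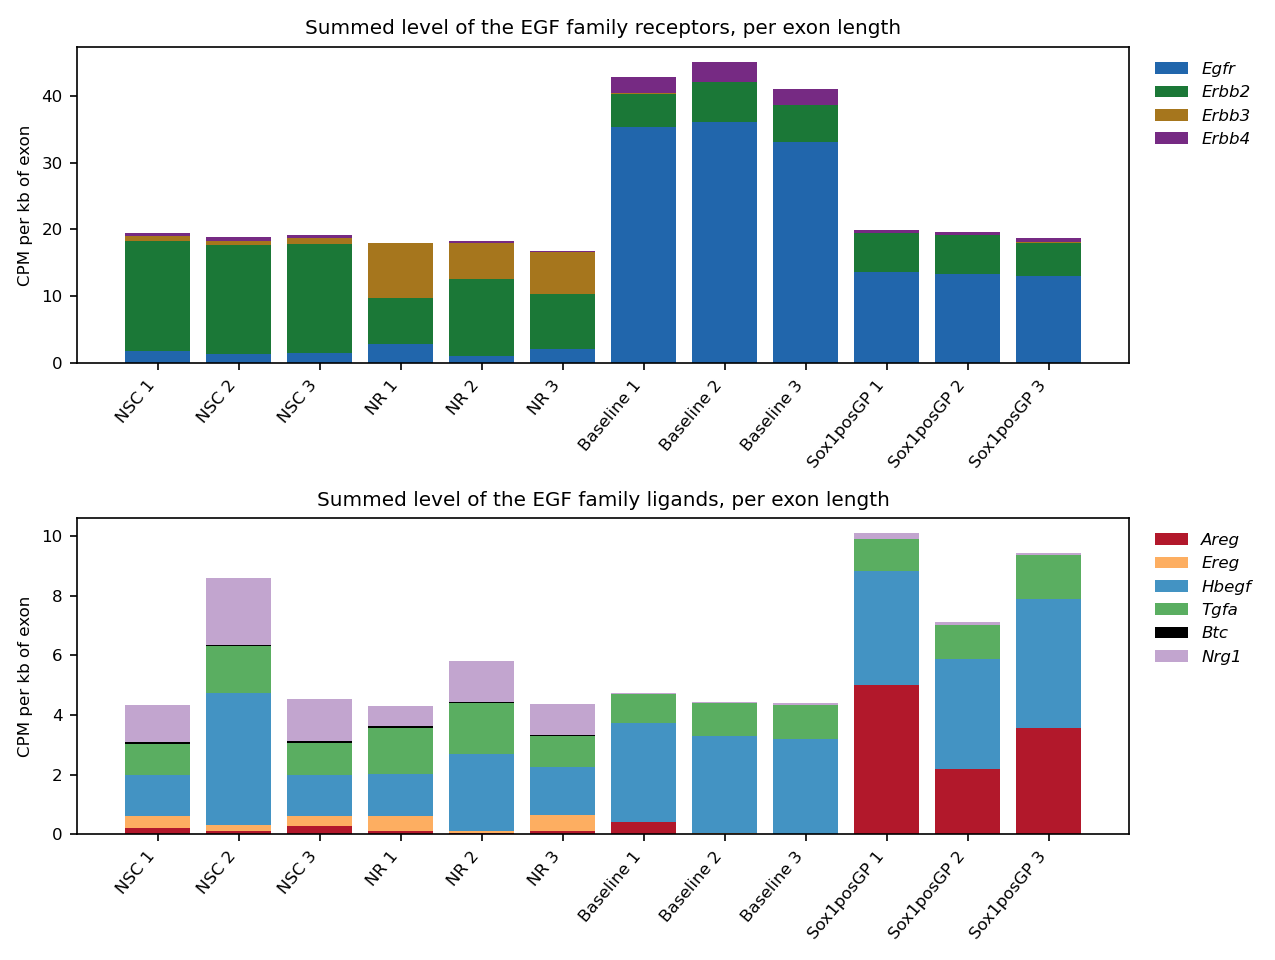
CPM per kilobase of exon union (y axis) of the receptors and of the ligands in every library (x axis), as bars stacked by gene. Egfr leads the receptors in Baseline and Sox1posGP and Erbb2 in NSC, and Areg is a visible part of the ligands in Sox1posGP.

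The rest of the pathway was read from 5 lists of 63 genes, of which 62 were tested. Between Sox1posGP and Baseline, 19 were called higher and 17 lower, or 30.6% and 27.4% against 21.6% and 22.7% of all genes tested, with a median log2 difference of -0.02 against 0.00. The adaptors and cascade proteins, such as the kinases of the Ras/MAPK route, gave 4 higher and 8 lower of 20 (20.0% and 40.0%, median -0.16). The receptor inhibitors and feedback genes gave 7 higher and 3 lower of 16 (43.8% and 18.8%, median 0.10). The transcriptional response genes gave 6 higher and 4 lower of 16 (37.5% and 25.0%, median 0.24). Of the 6 genes of ligand shedding and trafficking, 1 was higher and 2 were lower (16.7% and 33.3%, median -0.02). Several of these shares lay near those of all genes, and no difference of a list from all genes was tested. Of the 4 other EGF family ligands tested, 1 was called higher (median 2.28, or 0.55 with genes at 0 set to their bound).

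The pathway genes that moved most by the fit between Sox1posGP and Baseline included targets and inhibitors of the receptors. Ier3, an immediate early gene induced by growth factors, was counted at 849, 333 and 193 in Baseline and at 3, 3 and 2 in Sox1posGP. Its ratio was 0.0106 (exact 95% counting interval 0.00455 to 0.0209; edgeR quasi-likelihood test, Benjamini-Hochberg adjusted p = 1.09e-08), and all Baseline libraries lay far above all Sox1posGP libraries. Myc, a growth-promoting transcription factor, fell from 757, 919 and 910 CPM to 308, 316 and 294, at a log2 difference of -1.49 (SE 0.15; edgeR quasi-likelihood test, Benjamini-Hochberg adjusted p = 3.23e-06). Lrig1, a membrane protein that promotes the breakdown of EGF family receptors, fell from 163, 247 and 199 CPM to 99.0, 100 and 89.9, at a log2 difference of -1.07 (SE 0.24; edgeR quasi-likelihood test, Benjamini-Hochberg adjusted p = 0.00305). Among the genes that rose was Dusp4, a phosphatase that switches off MAP kinases, from 9.25, 10.7 and 10.6 CPM to 75.6, 76.6 and 69.4, by 2.88 (SE 0.17; edgeR quasi-likelihood test, Benjamini-Hochberg adjusted p = 2.7e-08). Myc, Lrig1 and Dusp4 did not overlap between the groups.

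Epha2, a receptor tyrosine kinase induced by Egfr signalling, rose from 3, 0 and 0 counts in Baseline to 4, 8 and 13 in Sox1posGP, a ratio of 15.1 (exact 95% counting interval 4.62 to 78.3; edgeR quasi-likelihood test, Benjamini-Hochberg adjusted p = 0.000261). All 3 Baseline counts of Epha2 came from Baseline 1, and without that library Epha2 was at least 2.92-fold higher in Sox1posGP. Nrg2, a neuregulin, rose from 0, 1 and 0 counts to 2, 4 and 2 (edgeR quasi-likelihood test, Benjamini-Hochberg adjusted p = 0.00743), with each group near the floor of 3 counts per library. Without Baseline 2 that group was at 0, and Nrg2 was at least 1.28-fold higher in Sox1posGP. Epha2 thus lay above that floor in every Sox1posGP library, at few counts, and Nrg2 only in Sox1posGP 2.

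The other ligands of the family are compared between groups of unequal depth by CPM. Egf itself stood at 3.32 ± 0.749 CPM (SD, n = 3) in Baseline, 2.39 ± 0.585 in Sox1posGP, 3.64 ± 0.435 in NSC and 3.46 ± 0.655 in NR, and Baseline overlapped each of the other groups. Sox1posGP, at 1.73 to 2.84 CPM, lay below every library of NSC (3.14 to 3.96) and NR (2.92 to 4.19). Egf was called lower in Sox1posGP than in NSC, at -0.62 (SE 0.28; edgeR quasi-likelihood test, Benjamini-Hochberg adjusted p = 0.0614), and its difference from NR, -0.54 (SE 0.28; adjusted p = 0.102 by the same test), was not called. Nrg4 stood at 0.666 ± 0.332 CPM in Baseline, 1.42 ± 0.790 in Sox1posGP, 1.44 ± 0.444 in NSC and 4.13 ± 1.04 in NR, and Baseline, Sox1posGP and NSC overlapped. Epgn was counted at 3, 0 and 0 in Baseline and at 0, 4 and 2 in Sox1posGP, and Nrg3 at 0, 0 and 0 and at 1, 0 and 0, both near the floor.

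In NSC against Baseline, 26 of the 62 pathway genes were called higher and 24 lower, or 41.9% and 38.7% against 44.4% and 33.7% of all genes (median 0.00 against 0.20). In NR against Baseline, 21 were higher and 30 lower, or 33.9% and 48.4% against 45.6% and 34.1% of all genes (median -0.23 against 0.19). Myc was lower at a log2 difference of -4.15 in NSC and -3.55 in NR, and Ier3 at -3.18 and -2.64. Etv5, a target of MAP kinase signalling, was lower at -2.68 in NSC, and Spry4, a feedback inhibitor of Ras/MAPK signalling, at -2.58 in NR. Rhbdf2, a pseudoprotease that carries the shedding enzyme ADAM17 to the cell surface, had 3, 2 and 2 counts in Baseline against 1107, 1174 and 879 in NSC, a ratio of 122 (exact 95% counting interval 59.0 to 303). In NR its ratio to Baseline was 185 (89.5 to 460). Epha2 had a ratio of 175 (59.7 to 848) for NSC over Baseline and 339 (116 to 1646) for NR over Baseline, and without Baseline 1 it was at least 35.7-fold and at least 69.5-fold higher. Nrg3, another neuregulin, was at 0 in Baseline and at least 1.53-fold higher in NSC and at least 1.37-fold higher in NR against the floor of 3 counts per library. All of these were called in their comparison by the edgeR quasi-likelihood test (Benjamini-Hochberg adjusted p at most 0.00214).

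Between NR and NSC, 16 of the 62 pathway genes were called higher and 25 lower, or 25.8% and 40.3% against 30.0% and 26.6% of all genes (median -0.11 against 0.01). The inhibitors and feedback genes gave 11 lower of 16 (median -0.53), while the transcriptional response genes gave 7 higher and 4 lower of 16 (median 0.14). The adaptors and cascade proteins gave 5 higher and 8 lower of 20 (median -0.12), the shedding and trafficking genes 2 higher and 2 lower of 6 (median 0.08), and the other ligands 2 higher of 4 (median 0.35). These groups were also the pair in which Erbb2, Erbb4 and Nrg1 were lower in NR and Erbb3 was higher.

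**Figure D5:**
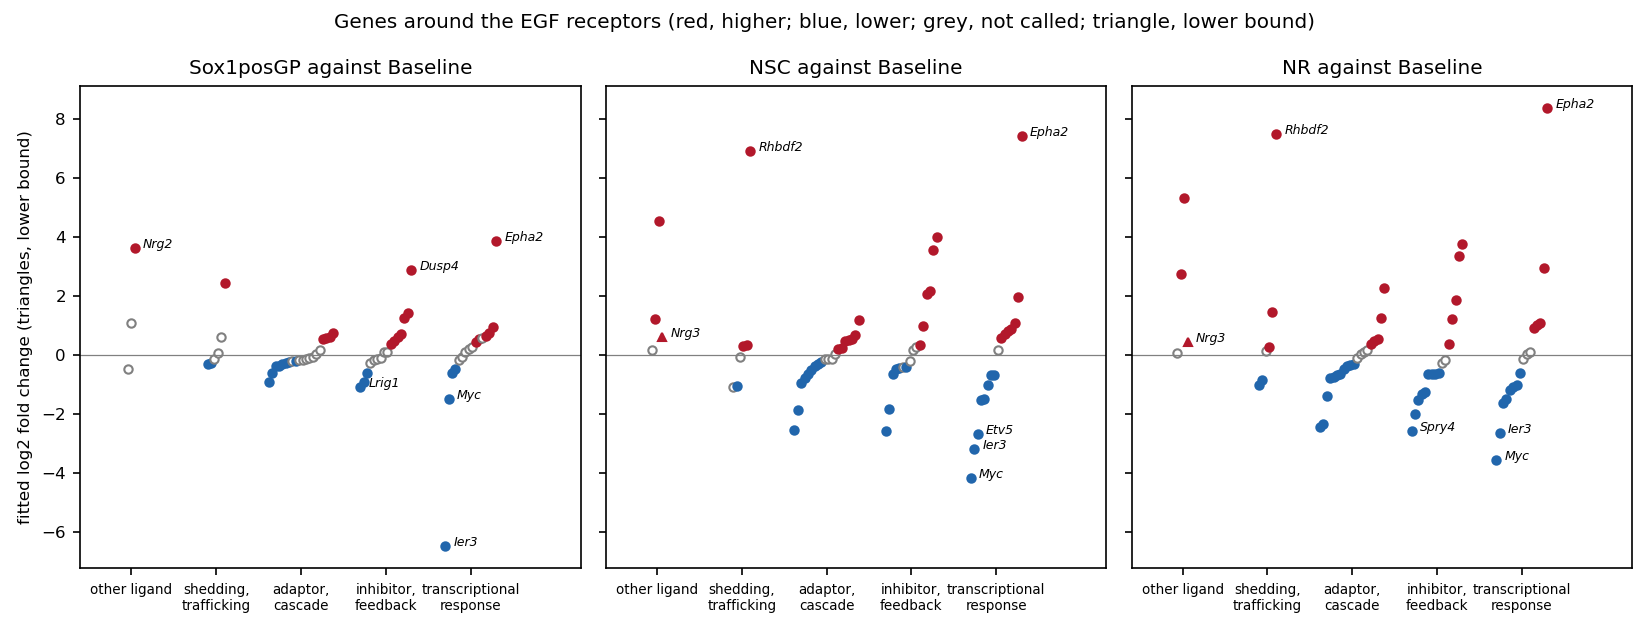
Fitted log2 difference from Baseline (y axis) of the tested genes of each pathway list (x axis), 1 panel per comparison and 1 point per gene, red for genes called higher, blue for lower, open for not called and triangles for lower bounds. Ier3 was lowest in Sox1posGP, Myc in NSC and NR, and Epha2 was highest in all 3 panels.

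Likeness between genes over the 12 libraries was measured as the root mean square difference of centred log2 CPM. Among the tested members, the member nearest to Egfr was Erbb4 at 1.31, and the nearest to Erbb2 was Tgfa at 0.666, while the nearest to Erbb3 was Ereg at 1.86. Among all tested genes, a far larger pool, those nearest to Egfr were Atp1b2 at 0.272, Fam120c at 0.284 and Serpinb8 at 0.291, and those nearest to Erbb2 were Llgl1 at 0.105, Rnf219 at 0.113 and Dbn1 at 0.115. Nearest to Erbb3 were Rpp25 at 0.494, Tdrd12 at 0.613 and Psma8 at 0.617, and nearest to Erbb4 were Kif21b at 0.468, Chst3 at 0.528 and Epha5 at 0.530.

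The called members Areg, Egfr and Erbb4 lie on chromosomes 5, 11 and 1, and a part of their surroundings in their differences was not tested. Within 5 Mb to either side, the median log2 difference between Sox1posGP and Baseline was -0.16 around Egfr (38 genes, 12 called) and 0.00 around Erbb4 (48 genes, 20 called), beside 21.6% of all genes called higher and 22.7% lower. Genes that overlap a member held fewer counts than the member, with 86 for Egfros against 17549 for Egfr, 596 for Gm26578 against 2686 for Nrg1, and 95 for Gm37735 against 1736 for Erbb4.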

How the data were processed

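RNA was read in 12 mouse libraries prepared with SMART-Seq v4, which does not mark the strand. The deposited table gives counts per gene. Per the submitters' processing notes, STAR 2.6 and RSEM 1.1.14 were used on build mm10, and no further role of each is given in the sources used here. Groups were taken from the sample labels. Genes were annotated by GENCODE M21. Low counts were filtered with filterByExpr over the 4 groups, which left 17003 of 45706 genes. The groups were compared with edgeR 4.0.16 (TMM scaling, quasi-likelihood test) in R 4.3.3, with p-values adjusted by Benjamini-Hochberg over all tested genes. The limma version was 3.58.1, and no limma test was run. The SE is the log2 difference divided by the root of F, and the prior count was 0.125. Counting intervals are exact (Clopper-Pearson) at 95% and take the whole numbers of the table as read counts. Whether they are read counts or rounded RSEM estimates is not given in the sources used here. Intervals came from scipy 1.17.1 under Python 3.11.15, tables from pandas 2.3.3 and plots from matplotlib 3.10.9.

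Alternatives were DESeq2 1.42.0, its size factors, upper quartile scaling, other filters, a fold over 4, 2 groups fitted alone, leaving out each library, a replicate block and longest-transcript lengths. A fit without the 3 NR libraries was chosen after seeing the data. Same-number libraries were checked for pairing, and the deviations of NR and NSC correlated by 0.229, 0.490 and 0.296, against -0.410 to 0.300 for different numbers. With a replicate block, NR against NSC gave 4 members called, the number called without it, and 10026 genes in all. Named genes were all 10 members, Sox1, the other family ligands and the 3 genes nearest in pattern to each receptor. Also named were the 3 called pathway genes with the largest fitted rise and the 3 with the largest fitted fall in each comparison with Baseline. Nrg3 in NSC and NR was ranked by a fit against a Baseline group at 0, and Nrg2 in Sox1posGP against 1 Baseline count. Their places are therefore no measured ranks. Lrig3, not named by this rule, had a mean of 8.48 CPM in Baseline against 96.5 in NSC and 110 in NR. The members and lists were chosen with earlier results of these data known.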

Additional observations from a re-analysis of the deposited data

How the results depend on the processing

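The depth of the glial progenitor libraries limits Areg, Ereg, Btc, Nrg1 and Erbb3, which had few or no counts there. For the counts of calls and the shares, 214 of 234 alternative values stayed within 1.5 times the reported count or within 1 SD of the reported share. For single genes, 627 of 683 kept their direction and side of the threshold, 12 lost a call, 18 gained one and 26 turned direction. The cause of these changes was not tested, beyond what a stricter filter or threshold removes by itself.

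With a fold over 4 asked as well, the genes called were 985 (Sox1posGP against Baseline), 4254 (NSC against Baseline), 4763 (NR against Baseline), 1268 (NR against NSC), 3775 (Sox1posGP against NSC) and 4437 (Sox1posGP against NR), with 1 member in NR against NSC and 5 in Sox1posGP against NR. A filter of at least 10 counts in every library left 10608 genes and 5 members. Members called were then 2 (Sox1posGP against Baseline), 3 (NSC against Baseline), 4 (NR against Baseline), 2 (NR against NSC), 2 (Sox1posGP against NSC) and 4 (Sox1posGP against NR). In the same order all genes called were 6269 (59.1%), 8647 (81.5%), 8619 (81.2%), 6671 (62.9%), 8315 (78.4%) and 8310 (78.3%). A replicate block changed no member call in NR against NSC. In the other comparisons libraries share only a number (correlations of deviations -0.047 to 0.062), and with the block Hbegf was called in NSC against Baseline (-0.63, edgeR quasi-likelihood test, Benjamini-Hochberg adjusted p = 0.069) and in Sox1posGP against NSC (0.88, adjusted p = 0.0197).

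Uncalled log2 differences that turned direction were Areg in NSC against Baseline, at 0.10 (DESeq2), 0.018 (its size factors), 0.011 (upper quartile), 0.036 (no filter) and 0.044 (block), and Tgfa in Sox1posGP against NSC, at -0.0011 (DESeq2), -0.0023 (its size factors) and -0.064 (no filter). Leaving out 1 library gave ranges of -0.49 to 5.34 for Areg in NSC against Baseline and -1.69 to 4.18 in NR against Baseline. Their upper ends are fits without Baseline 1, against a group at 0, and are no bounds. For Tgfa they were -0.0086 to 0.32 in NSC against Baseline and -0.16 to 0.25 in Sox1posGP against NSC. In NR against NSC they were -0.28 to 0.70 for Ereg, -0.65 to 0.43 for Hbegf and -0.0066 to 0.60 for Egfr. In Sox1posGP against Baseline they were -0.029 to 0.093 for Erbb2 and -0.052 to 1.38 for Erbb3, and for Erbb4 in Sox1posGP against NSC -0.34 to 0.23. With longest-transcript lengths, Egfr was 70.2% of receptor RNA in Sox1posGP, and of ligand RNA Areg was 28.8% in Sox1posGP and Hbegf 75.4% in Baseline and 54.6% in Sox1posGP.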
